A study of Mus musculus with 21 samples.

Results

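The expression of 10 genes that report on and restrain the ERK branch of RAS signaling was followed across B cell precursors carrying an empty vector, BCR-ABL1 or C-MYC. They comprised 3 phosphatase genes (Dusp6, Dusp4 and Dusp5), 3 Sprouty genes (Spry1, Spry2 and Spry4), the Spred genes Spred1 and Spred2, and the ETS factor genes Etv4 and Etv5. All 10 were found by symbol among the 24421 gene symbols of the expression tables. The list was selected on measured values, since Dusp6 was known from an earlier look at the same libraries as a gene with a large difference between BCR-ABL1 and C-MYC, and its relatives were added with those data in hand. The levels and fold changes of these genes in the 3 comparisons are therefore given as a description, with no p, and so are the counts of them that passed the threshold of the fit across all genes.

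The cells were primary B cell precursors grown out of mouse bone marrow with 10 ng/ml interleukin-7. Every library, controls included, came from 53BP1-/- C57BL/6 animals, which lack the DNA repair factor 53BP1. Retroviral transduction was done by spinoculation on culture days 2 and 3, with the empty MIGR1 vector (EV), with MIGR1 carrying the human fusion kinase BCR-ABL1 (p210) or with MIGR1 carrying mouse C-MYC, and cells were taken 7 to 9 days after transduction. Poly(A) RNA was sequenced in 2 libraries for each of the 3 conditions, 6 of the 21 samples of the series. The promoter of the retroviral vector drives the oncogenes, and the RNA comes from a bulk culture in which fewer expressing cells and less RNA per cell cannot be told apart. The methods of the study speak of duplicate experiments, but neither they nor the labels say whether the 2 libraries of a condition stem from separate animals or cultures, so that tests measure the spread between these libraries only.

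Total counts lay between 20687092 and 24095955 per library. Myc, as a check of the labels, had 1743 and 1233 normalised CPM (read counts scaled to a common library size) in the C-MYC libraries, 343 and 348 in the BCR-ABL1 libraries and 181 and 137 in the EV libraries. The B cell precursor markers (such as Cd79a and Pax5, 10 of 10 found) summed to between 5615 and 6377 CPM in EV, between 5796 and 6443 CPM in BCR-ABL1 and between 3294 and 3917 CPM in C-MYC, with none at 0. By edgeR, 2 of the 10 were lower than in EV with BCR-ABL1 and 9 with C-MYC, and 0 were higher in either. Of all genes tested, 12.0% were lower than in EV with BCR-ABL1 and 24.5% with C-MYC. Markers of other cell types were highest in the EV libraries. Myeloid markers (10 of 10 found, such as Lyz2 and Csf1r) summed to between 872 and 1090 CPM in EV, against 129 to 158 CPM in BCR-ABL1 and 202 to 354 CPM in C-MYC, and all 10 were lower in both oncogene conditions by edgeR. T and NK cell markers (9 of 10 found) summed to 139 to 207 CPM in EV and to at most 12.5 CPM in the other libraries, and all 9 were lower in both. Stromal and endothelial markers (10 of 10 found) summed to 190 to 299 CPM in EV, to 16.5 to 16.9 CPM in BCR-ABL1 and to 4.51 to 5.97 CPM in C-MYC, where Cxcl12 and Pdgfrb were at 0. Of 9 tested, 7 were lower with BCR-ABL1 and 8 with C-MYC. Erythroid and megakaryocyte markers (10 of 10 found) summed to 37.9 to 47.8 CPM in EV, to 7.94 to 9.34 CPM in BCR-ABL1 and to 11.4 to 13.7 CPM in C-MYC, and the globin genes Hba-a1, Hba-a2 and Hbb-bs were at 0 in every library. These levels move with every comparison against EV below, and their part in those results was not tested. The difference of BCR-ABL1 from C-MYC is not measured against EV, but the EV libraries enter the filter, the scaling and the spread used for its calls. In that comparison too, 7 of 10 B precursor markers and 4 of 9 stromal markers tested were higher and 4 of 10 myeloid markers were lower in BCR-ABL1. Of all genes tested, 11.9% were higher and 11.5% lower. The part of these marker differences was not tested either.

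**Figure D1:**
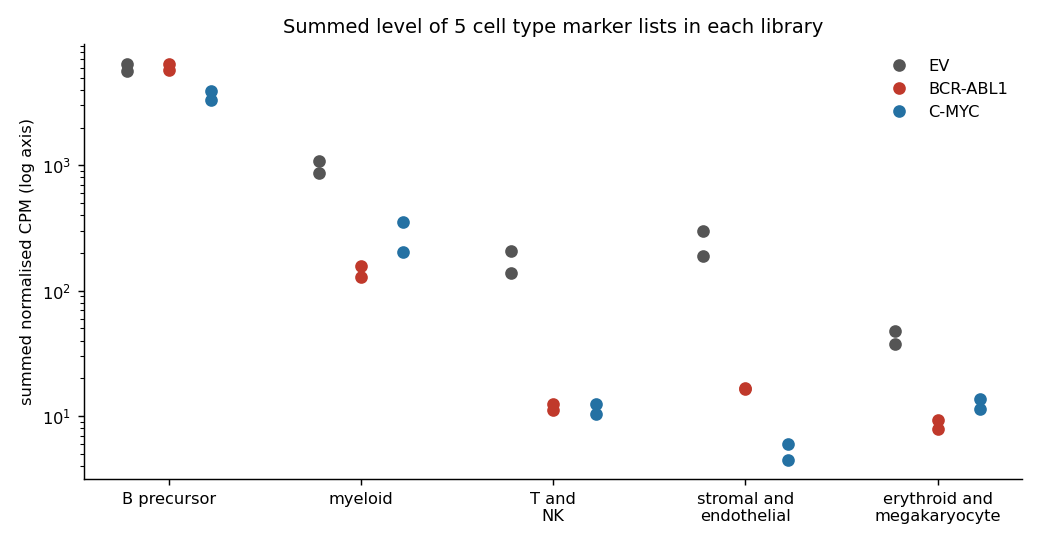
Summed TMM-normalised CPM of each marker list (horizontal axis) on a log axis, 1 point per library, coloured by condition. The EV points of the myeloid, T and NK, stromal and erythroid lists sit above all points of both oncogene conditions, while the B precursor points of EV and BCR-ABL1 share a range.

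ERK is the last kinase of the RAS, RAF and MEK cascade and is switched on in B cell precursors by the pre-B cell receptor, by cytokine receptors and by kinases such as BCR-ABL1. Active ERK induces its own inhibitors: the DUSP phosphatases strip the activating phosphates from ERK, the Sprouty proteins restrain the steps between receptor and RAF, and the Spred proteins bring the RAS GTPase-activating protein Nf1 to the membrane. Etv4 and Etv5 are ETS transcription factors whose genes are held down by the repressor Capicua, which ERK signaling relieves, so that their RNA, like that of Dusp6, is widely read as a measure of pathway output.

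Upstream sequences are shown for 4 of the genes, because the repressor that ERK relieves recognises a known octamer and the other inducible route, through the serum response factor, uses the CArG box. Promoters of 300 bases, 250 before and 50 after the start of transcription, were taken from RefSeq on GRCm38.p6 and were found for 7 of the 10 genes (8 promoters, as Etv5 has 2). Dusp4, Etv4 and Spry4 had no entry. Dusp6 (chr10:99263081-99263230, plus strand) and Spry2 (chr14:105896820-105896919, minus strand) are shown up to the base before their start, with a Capicua octamer in capitals. Dusp5 (chr19:53528995-53529105, plus strand) is shown from 150 to 40 bases before its start, with a pair of abutting CArG boxes in capitals. Etv5 (chr16:22439721-22439820, minus strand) is shown from 250 to 151 bases before its start, because its order across conditions was that of Dusp6. None of the motifs was found in its promoters of 300 bases. A link between motifs and order across conditions was not tested. Beyond the next base, the promoter lies in the first exon of Etv5 in the GENCODE annotation and is left out.
Dusp6: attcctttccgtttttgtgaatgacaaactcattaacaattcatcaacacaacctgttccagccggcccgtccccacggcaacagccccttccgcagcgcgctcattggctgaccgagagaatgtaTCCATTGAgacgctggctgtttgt
Spry2: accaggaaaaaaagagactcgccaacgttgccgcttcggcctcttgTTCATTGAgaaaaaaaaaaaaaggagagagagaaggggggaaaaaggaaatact
Dusp5: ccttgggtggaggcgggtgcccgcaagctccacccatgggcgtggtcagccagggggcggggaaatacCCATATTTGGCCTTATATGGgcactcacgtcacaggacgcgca
Etv5: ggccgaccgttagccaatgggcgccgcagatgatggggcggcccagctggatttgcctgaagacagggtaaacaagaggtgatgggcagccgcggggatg

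The octamer was searched as TGAATGAA, TGAATGGA, TCAATGAA or TCAATGGA on both strands, and 3.84% of the 32851 promoters in the table hold at least 1 of them. Among the 8 promoters of the members it was in Dusp6, at positions -24 to -17 and 2 to 9 from the start, and in Spry2, at -54 to -47. CArG boxes, in 1.63% of all promoters, were found in Dusp5 alone, at -82 to -73 and at -72 to -63. The ETS core CCGGAA (14.9% of all promoters) was in Spry2 only, at 34 to 39. The E-box CACGTG bound by C-MYC (7.15%), the AP-1 motif TGANTCA (7.81%), the cyclic AMP response element TGACGTCA (1.79%) and the STAT motif TTCNNNGAA (8.30%), each on both strands, were in none of the 8. These are matches of letters in short windows and not sites of binding.

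Dusp6 encodes the cytoplasmic phosphatase that is specific for ERK, and its gene lies at chr10:99263231-99267489 on the plus strand (GRCm38, as all positions here). In EV it had 32.5 and 46.4 CPM, with a mean ± SD of 39.5 ± 9.87 (n = 2). With BCR-ABL1 it had 78.9 and 79.2 CPM (79.1 ± 0.188, n = 2), and with C-MYC 4.04 and 4.71 CPM (4.38 ± 0.474, n = 2). Both BCR-ABL1 libraries thus stood above, and both C-MYC libraries below, the EV libraries. In counts, the C-MYC libraries had 88 and 105 reads on Dusp6, where the BCR-ABL1 libraries had 1665 and 1906. The fitted log2 difference was 1.00 ± 0.18 (SE) between BCR-ABL1 and EV, a 2.00-fold higher level, and -3.17 ± 0.21 between C-MYC and EV, a 9.00-fold lower level. Between BCR-ABL1 and C-MYC it was 4.17 ± 0.21, an 18.0-fold difference and the 41st largest rise among 12786 genes.

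Dusp4 and Dusp5 encode nuclear phosphatases of the same family, and they followed different courses. Dusp4 (chr8:34807297-34819894, plus strand) was scarce, with 2.62 and 2.17 CPM in EV, 1.90 and 1.79 CPM in BCR-ABL1 and 0.322 and 0.404 CPM (7 and 9 reads) in C-MYC. Its C-MYC libraries lay below all others. Its BCR-ABL1 libraries lay just below EV, a difference that was not called, where those of Dusp6 lay above. The log2 difference from EV was -2.70 ± 0.37 (SE) in C-MYC and -0.38 ± 0.31 in BCR-ABL1, and BCR-ABL1 exceeded C-MYC by 2.32 ± 0.38.

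Dusp5 (chr19:53529109-53542431, plus strand) was the most highly expressed of the 10 genes per transcript length. Its EV libraries had 46.1 and 101 CPM, a wider gap than in either oncogene condition, with 75.0 and 73.6 CPM in BCR-ABL1 and 64.9 and 48.4 CPM in C-MYC. The EV range enclosed every other library. Fitted log2 differences were 0.02 ± 0.32 (SE) for BCR-ABL1 and -0.38 ± 0.32 for C-MYC against EV, and 0.39 ± 0.32 between the oncogenes. Without EV replicate 2 the difference of BCR-ABL1 from EV was 0.69, and without EV replicate 1 it was -0.43, so its sign rested on a single EV library.

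Within a library, the RNA of the cytoplasmic and of the nuclear enzyme can be compared without reference to other libraries. Enzyme levels were not measured. The ratio of Dusp6 to Dusp5 in FPKM was 0.324 and 0.209 in EV, 0.478 and 0.506 with BCR-ABL1 and 0.0279 and 0.0462 with C-MYC. The 3 conditions did not overlap in this ratio, and on the scale of CPM per kilobase of annotated exon it was 0.831 and 0.849 in BCR-ABL1 against 0.0492 and 0.0769 in C-MYC.

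**Figure D2:**
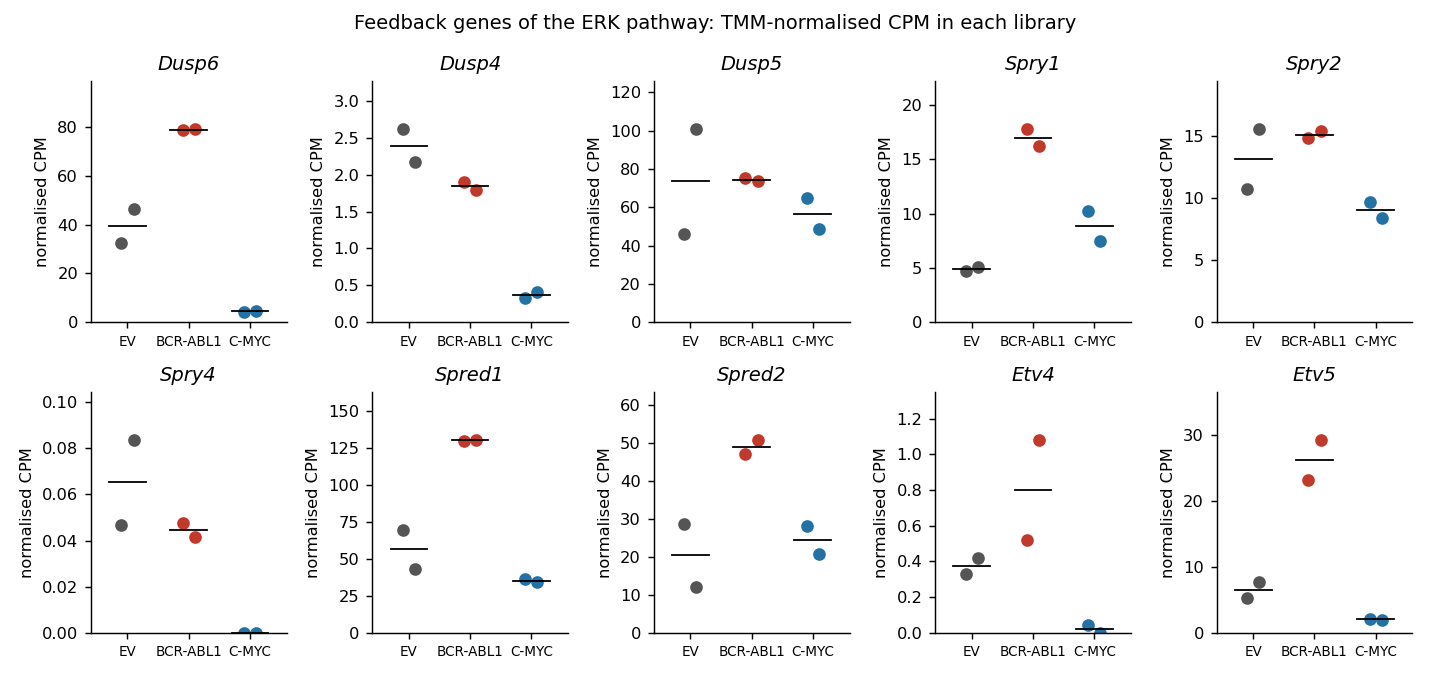
TMM-normalised CPM (vertical axis, linear and from 0, scaled separately for each gene) of the 10 genes in EV, BCR-ABL1 and C-MYC, with 1 point per library and a line at the mean of 2 libraries. Dusp6, Etv5, Spred1 and Etv4 have both BCR-ABL1 points above and both C-MYC points below the EV points, whereas both oncogenes lie above EV for Spry1 and the EV points of Dusp5 enclose all others.

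Spry1 (chr3:37639947-37644598, plus strand), a Sprouty gene, was the 1 member whose BCR-ABL1 and C-MYC libraries all lay above the EV libraries. It had 4.72 and 5.10 CPM in EV, 17.8 and 16.3 CPM in BCR-ABL1 and 10.3 and 7.45 CPM in C-MYC. No condition overlapped another, and EV was lowest. The log2 difference from EV was 1.79 ± 0.22 (SE) with BCR-ABL1, a 3.46-fold higher level, and 0.85 ± 0.22 with C-MYC, a 1.80-fold higher level. BCR-ABL1 exceeded C-MYC by 0.94 ± 0.21.

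Spry2 (chr14:105891947-105896819, minus strand) differed less. In EV it had 10.8 and 15.6 CPM, in BCR-ABL1 14.8 and 15.4 CPM and in C-MYC 9.65 and 8.40 CPM. The BCR-ABL1 libraries fell within the EV range and the C-MYC libraries under it. Its log2 differences were 0.20 ± 0.22 (SE) for BCR-ABL1 and -0.54 ± 0.22 for C-MYC against EV, and 0.75 ± 0.22 between the oncogenes. The ratio of Spry2 to Spry1 in FPKM was 2.02 and 2.44 in EV, but 0.716 and 0.786 with BCR-ABL1 and 0.632 and 0.980 with C-MYC, so that Spry1 was the lower of the pair in EV and the higher in the oncogene libraries. On the scale of CPM per kilobase the ratio was also higher in EV (3.17 and 4.25) than in BCR-ABL1 (1.16 and 1.32) and C-MYC (1.31 and 1.57), but Spry2 stayed above Spry1 in all 6 libraries.

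Spry4, another Sprouty gene, was hardly detected. It had 1 and 2 reads in EV, 1 and 1 with BCR-ABL1 and 0 and 0 with C-MYC. All libraries were under 3 reads, the number that a count of 0 allows, and no fold is given. It was the 1 member of 10 that did not pass the filter on low counts.

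Spred1 (chr2:117121374-117182279, plus strand) encodes an adaptor that inhibits RAS signaling with Nf1. It had 69.4 and 43.2 CPM in EV, 129.6 and 130.2 CPM in BCR-ABL1 and 36.0 and 34.0 CPM in C-MYC. The BCR-ABL1 libraries lay above and the C-MYC libraries below both EV libraries, which differed from each other more than the libraries of either oncogene did. Against EV the log2 difference was 1.21 ± 0.21 (SE) with BCR-ABL1 and -0.68 ± 0.21 with C-MYC, and it was 1.89 ± 0.21, or 3.71-fold, between the oncogenes.

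Its paralog Spred2 (chr11:19924375-20024026, plus strand) had 47.0 and 50.7 CPM in the BCR-ABL1 libraries, 28.7 and 12.0 CPM in the EV libraries and 28.0 and 20.8 CPM in the C-MYC libraries. The BCR-ABL1 libraries stood apart from all others, and the C-MYC libraries fell inside the EV range. Log2 differences were 1.27 ± 0.36 (SE) for BCR-ABL1 and 0.27 ± 0.36 for C-MYC against EV, and 1.00 ± 0.35 between the oncogenes. As for Dusp5, the value depended on the EV library used. The difference of BCR-ABL1 from EV was 0.77 when EV replicate 2 was left out and 2.03 when EV replicate 1 was left out. The FPKM ratio of Spred1 to Spred2 was 1.92 and 2.87 in EV, 2.22 and 2.07 with BCR-ABL1 and 1.02 and 1.31 with C-MYC, with C-MYC below the other conditions.

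Etv5 (chr16:22381309-22439719, minus strand) had the largest difference from EV with BCR-ABL1 of the 9 members tested. It had 5.33 and 7.65 CPM in EV, 23.2 and 29.3 CPM in BCR-ABL1 and 2.07 and 2.02 CPM in C-MYC. The 3 conditions did not overlap, and the C-MYC libraries had 45 reads each. The log2 difference from EV was 2.01 ± 0.23 (SE), or 4.04-fold, with BCR-ABL1 and -1.67 ± 0.26, or 3.17-fold lower, with C-MYC. Between the oncogenes it was 3.68 ± 0.26, or 12.8-fold, the 62nd largest rise among 12786 genes.

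Etv4 (chr11:101769742-101785371, minus strand) was ordered in the same way at a level close to the limit of detection. It had 7 and 10 reads in EV, 11 and 26 with BCR-ABL1 and 1 and 0 with C-MYC. The BCR-ABL1 libraries differed from each other more than EV did, and only 1 read was seen in C-MYC. The ratio of the summed reads, scaled to library size, was 36.1 for BCR-ABL1 over C-MYC, with an exact 95% interval of 6.08 to 1463, and 16.5 for EV over C-MYC, with an interval of 2.59 to 690. These intervals, like the others given for ratios of reads, cover counting error only. Against EV, the log2 difference with BCR-ABL1 was 1.10 ± 0.58 (SE), and 0.47 without BCR-ABL1 replicate 2. In both conditions with detectable Etv4, Etv5 was the more abundant of the pair, with an FPKM ratio of 12.2 and 15.6 in EV and of 33.6 and 18.8 in BCR-ABL1.

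**Figure D3:**
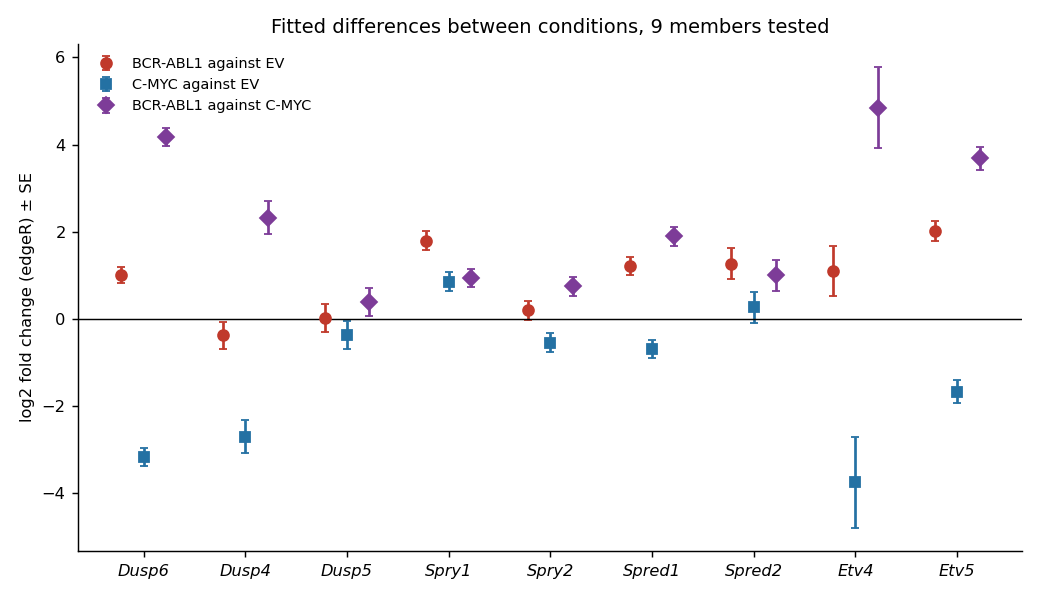
Fitted log2 fold change with its SE (edgeR, vertical axis) for the 9 members tested, with circles for BCR-ABL1 against EV, squares for C-MYC against EV and diamonds for BCR-ABL1 against C-MYC. Diamonds exceed 3 for Dusp6, Etv4 and Etv5 and stay under 1 for Dusp5, Spry1 and Spry2. The fitted values of Etv4 against C-MYC rest on 1 read there.

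Against EV, edgeR's quasi-likelihood test called 5 of the 9 members higher in BCR-ABL1 (Dusp6, Spry1, Spred1, Spred2 and Etv5) and 0 lower, at a Benjamini-Hochberg adjusted p of 0.05 over all 12786 genes. Of all genes tested, 5.08% were higher and 12.0% lower. The median log2 difference of the 9 members was 1.10, that of all genes 0.00. Without BCR-ABL1 replicate 2 the count was 2, with Dusp6, Spred1 and Spred2 lost, and without BCR-ABL1 replicate 1 it was 3, with Dusp6 and Spred2 lost. Spred2 was also lost without either C-MYC library, in a fit of only the 4 libraries compared and in all 3 limma fits on FPKM, of which 2 lost Dusp6 and 1 lost Spred1. Because the list was chosen with all 3 comparisons known, nothing is read from the members' share or median beside those of all genes, here or in the next comparisons. The marker sums of other cell types given above differ in this comparison and in the next.

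With C-MYC, 5 members were called lower than in EV (Dusp6, Dusp4, Spred1, Etv4 and Etv5) and 1 higher (Spry1), beside 24.5% of all genes lower and 18.6% higher. The median was -0.69 for the members and -0.08 for all genes. Without C-MYC replicate 1 the count of members was 3, with Spry1, Spred1 and Etv4 lost. Spred1 was lost also without EV replicate 1, C-MYC replicate 2 or either BCR-ABL1 library, in a fit of only the 4 libraries compared and in 2 of 3 limma fits. Etv4 was lost also without EV replicate 2 or C-MYC replicate 2, in DESeq2 and in 2 of 3 limma fits, and Spry1 in 1 limma fit. Spry2, Dusp5 and Spred2 were called in addition when EV replicate 1 was left out. In all 3 limma fits Spry2 was called too. Etv4 was not tested in the fit of only the 4 libraries compared. As both comparisons share the EV libraries, they are not independent of each other.

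Between the oncogenes, 7 members were called higher in BCR-ABL1 than in C-MYC, which were all of those tested except Dusp5 and Spred2, and 0 were called lower. Of all genes, 11.9% were higher and 11.5% lower. The median was 1.89 for the members and 0.00 for all genes. All 9 members tested had both BCR-ABL1 libraries above both C-MYC libraries. The share of all genes with this separation was not counted, so nothing is read from it. The count of called members was 8 when the EV libraries were left out of the fit, with Spred2 added. It was 4 without BCR-ABL1 replicate 1 (Dusp4, Spry1 and Spry2 lost), without BCR-ABL1 replicate 2 (Spry1, Spry2 and Etv4 lost) or without C-MYC replicate 2 (the same 3 lost), and 6 without C-MYC replicate 1 (Spry2 lost). Etv4 was lost also in 2 of 3 limma fits. The list was chosen on this contrast in the first place.

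Levels of different genes can be compared only per length, here in the authors' FPKM. In EV the order was Dusp5, Dusp6, Spred1, Spred2, Spry2, Etv5, Spry1, Dusp4, Etv4 and Spry4, where the ranges of Dusp6 (11.5 to 16.8 FPKM) and Spred1 (10.8 to 16.9 FPKM) overlapped, as did those of Spry2 and Etv5. In BCR-ABL1 it was Dusp5, Spred1, Dusp6, Spred2, Etv5, Spry1, Spry2, Dusp4, Etv4 and Spry4, and no neighbours overlapped. Here Dusp5 had 53.4 to 55.9 FPKM, Spred1 30.0 to 30.7 FPKM and Dusp6 26.7 to 27.0 FPKM.

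In C-MYC, Dusp6 took the 5th place with 1.29 to 1.59 FPKM, within reach of Spry1 (1.51 to 2.03 FPKM) and Spry2 (1.28 to 1.48 FPKM), while Dusp5 stayed first with 34.5 to 46.2 FPKM. Etv4, with 0 and 0.0094 FPKM, could not be separated from Spry4, which was listed at 0. With CPM per kilobase of exon used instead, Dusp6 was above Spred1 in BCR-ABL1 (25.2 to 25.3 against 19.1 to 19.2 CPM per kilobase) and Spry2 was above Spry1 in every condition. The ratio of FPKM to CPM per kilobase was 0.232 times that of the median gene for Spry2 and 0.390 times for Spry1, so the places of these genes depend on the transcript lengths used.

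**Figure D4:**
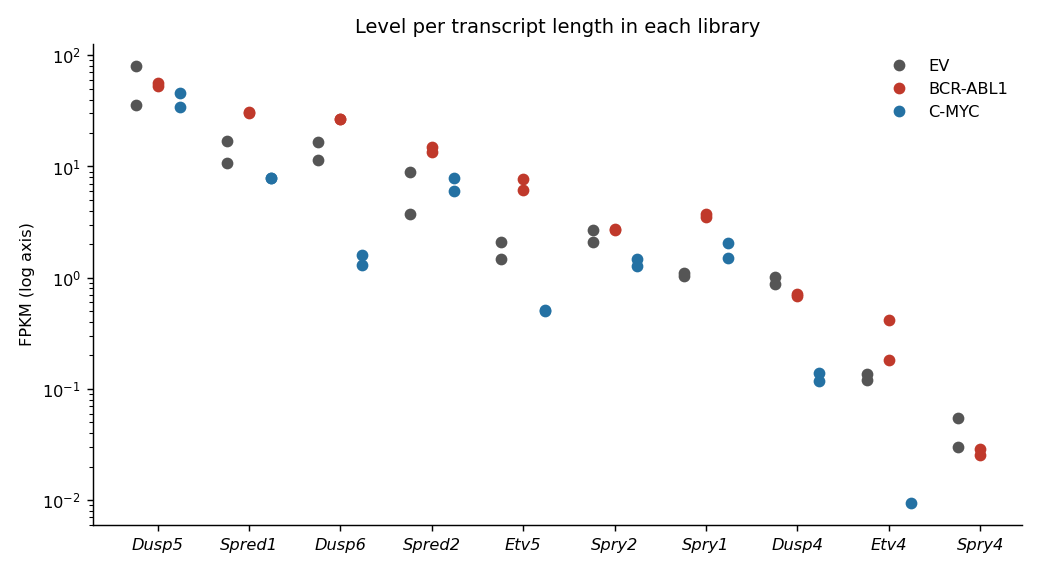
FPKM of the 10 genes on a log axis, ordered by their mean over the 6 libraries, with 1 point per library coloured by condition. The 0 values of Etv4 (C-MYC replicate 2) and Spry4 (both C-MYC libraries) cannot be drawn. The C-MYC points of Dusp6 lie more than 10-fold below its BCR-ABL1 points, while those of Dusp5 lie within the EV range or just below it.

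Genes whose pattern over the 6 libraries was most like that of Dusp6 were sought by Pearson's r of log2(CPM + 1) among 10622 genes that averaged 50 or more counts. The 5 highest were Fnbp1l (0.998), Bfsp2 (0.998), Cyp4f18 (0.997), Sfn (0.996) and Nlrc3 (0.996). Of these, Bfsp2 came closest to Dusp6 in size, with 9.16 and 10.0 CPM in EV and a log2 difference of 3.90 between BCR-ABL1 and C-MYC. Among the members themselves r to Dusp6 was 0.926 for Etv5, 0.912 for Spry2, 0.900 for Etv4, 0.891 for Dusp4 and 0.845 for Spred1, but 0.502 for Dusp5, 0.363 for Spred2 and 0.295 for Spry1. Etv5 was 390th and Spry2 478th of the 10622 genes ranked. The 6 points of each correlation are pairs of libraries from 3 conditions, so that any gene with the same order of conditions scores high, and no test is attached.

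The rest of the pathway was read from 9 lists with 102 genes, of which 96 passed the filter. Between BCR-ABL1 and C-MYC, 22 were called higher and 8 lower in BCR-ABL1, with a median log2 difference of 0.23, beside the 11.9% and 11.5% of all genes given above. Against EV, 4 were higher and 17 lower with BCR-ABL1, with a median of -0.02, beside 5.08% of all genes higher and 12.0% lower. With C-MYC, 8 were higher and 38 lower than in EV, with a median of -0.36, beside 18.6% of all genes higher and 24.5% lower. The counts given below for each list stand beside these same shares. Values are given below as log2 difference ± SE. The largest between the oncogenes was that of Etv1, the remaining ETS factor of the PEA3 group with Etv4 and Etv5, which had 12 and 12 reads in EV, 27 and 44 with BCR-ABL1 and 2 and 4 with C-MYC. Like Etv4 and Etv5 it was highest in BCR-ABL1 and lowest in C-MYC without overlap, with log2 differences from EV of 1.55 ± 0.43 (SE) and -1.92 ± 0.59, and of 3.46 ± 0.53 between the oncogenes.

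In the cascade that the members restrain, the share called between the oncogenes was near that of all genes. Of 16 genes from RAS to ERK, 2 were higher (Rras2, 0.69 ± 0.14, and Shoc2, 0.46 ± 0.13) and 2 lower in BCR-ABL1 than in C-MYC (Hras, -0.80 ± 0.15, and Pebp1, -0.41 ± 0.10). Against EV, BCR-ABL1 had lower Rras (-1.39 ± 0.38) and Ksr1 (-1.10 ± 0.22) and higher Pebp1 (0.56 ± 0.10), and C-MYC had lower Araf (-0.40 ± 0.12) and Ksr1 (-1.57 ± 0.22) and higher Hras (0.98 ± 0.15) and Pebp1 (0.98 ± 0.10).

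Upstream of the cascade, 5 of 15 genes that activate RAS were higher in BCR-ABL1 than in C-MYC and 0 lower. The largest were the exchange factors Rasgrp3 (1.88 ± 0.44) and Rasgrp1 (1.59 ± 0.25), the adaptor Gab1 (1.21 ± 0.24) and Rasgrp2 (0.64 ± 0.13). Against EV, 3 were lower in BCR-ABL1 (Gab1, -1.42 ± 0.22, Gab2, -0.68 ± 0.13, and Rasgrp4, -1.50 ± 0.26) and 8 were lower in C-MYC, led by Gab1 (-2.63 ± 0.23), Rasgrp4 (-2.08 ± 0.27), Rasgrp3 (-2.00 ± 0.44) and Gab3 (-1.39 ± 0.26). Of 10 RAS inactivators tested, Rasal3 (1.07 ± 0.10) and Rasa3 (0.67 ± 0.12) were higher and Rasal1 (-1.55 ± 0.23) lower in BCR-ABL1 than in C-MYC. Nf1, the partner of the Spred proteins, was lower in C-MYC than in EV (-0.47 ± 0.16), as were Rasa3 (-0.99 ± 0.12), Rasa4 (-1.42 ± 0.21) and Rasal3 (-0.83 ± 0.10), while Rasa4 (-1.90 ± 0.21) and Rasal1 (-1.52 ± 0.23) were lower in BCR-ABL1 than in EV.

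The other MAP kinase phosphatases were called in both directions. Of 7 tested, Dusp7, the closest relative of Dusp6 in its preference for ERK, was higher in BCR-ABL1 than in C-MYC (1.03 ± 0.21), and Dusp9, another ERK-selective enzyme, was lower (-1.84 ± 0.29). Dusp9 was higher in C-MYC than in EV (2.33 ± 0.30), opposite to the fitted difference of Dusp6. Dusp1 and Dusp8 were lower than in EV with BCR-ABL1 (-1.65 ± 0.47 and -2.05 ± 0.48) and with C-MYC (-1.67 ± 0.47 and -3.48 ± 0.55), although the EV libraries differed widely in Dusp1, with 15.1 and 49.6 CPM. Spry3 did not pass the filter, and Spred3 was lower in C-MYC than in EV (-2.09 ± 0.37).

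**Figure D5:**
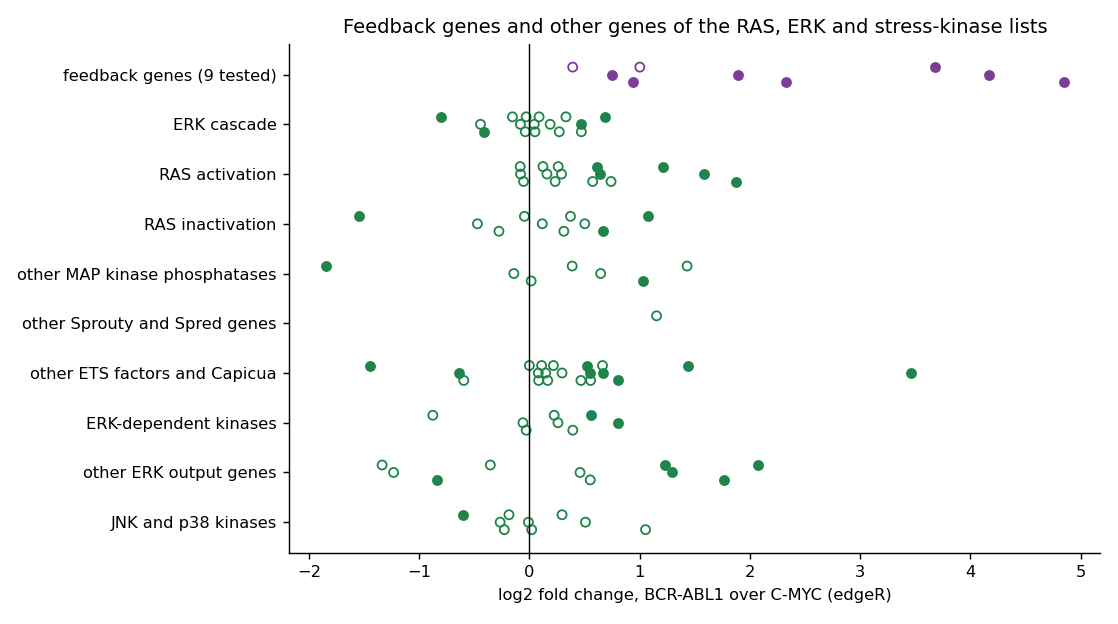
Log2 fold change of BCR-ABL1 over C-MYC (edgeR, horizontal axis) for the 9 feedback genes tested (top row) and for the genes of 9 other lists, 1 point per gene, filled where the adjusted p was below 0.05. The feedback genes, which were chosen with this contrast known, all lie right of 0, and Etv1 is the list gene farthest to the right at 3.46.

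Among 20 other ETS factors, Capicua and its partners, 6 were higher and 2 lower in BCR-ABL1 than in C-MYC. Beside Etv1 these included Elk3 (1.44 ± 0.18) and Etv3 (0.80 ± 0.24), while the repressor gene Erf was lower (-1.45 ± 0.25). Against EV, Etv1 was higher in BCR-ABL1 and Ets2 (-1.34 ± 0.16), Spib (-0.84 ± 0.13) and Atxn1 (-1.55 ± 0.26), which encodes a Capicua partner, were lower. In C-MYC 1 was higher than in EV (Erf, 1.89 ± 0.25) and 10 were lower, led by Etv1, Spib (-1.37 ± 0.13) and Elk3 (-1.01 ± 0.18). Atxn1 was among them (-0.96 ± 0.25), as was the Capicua gene Cic (-0.86 ± 0.13), which was also higher in BCR-ABL1 than in C-MYC (0.54 ± 0.13). The other listed partner gene, Atxn1l, was called in no comparison. It differed from EV by -0.01 ± 0.16 with BCR-ABL1 and -0.17 ± 0.16 with C-MYC, and by 0.17 ± 0.16 between the oncogenes. Mean levels in EV were 84.2 CPM for Atxn1l and 6.93 CPM for Atxn1.

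Other genes that ERK is known to induce were divided. Of 10 tested, Lif (2.07 ± 0.55), Epha2 (1.76 ± 0.31), Egr3 (1.29 ± 0.36) and Phlda1 (1.23 ± 0.27) were higher in BCR-ABL1 than in C-MYC and 1 was lower. Against EV, however, Egr2 (-3.46 ± 0.46), Egr3 (-1.39 ± 0.33) and Ier3 (-3.60 ± 0.49) were lower in BCR-ABL1, where Dusp6 and Etv5 had higher levels, and Epha2 was higher (1.09 ± 0.30). The EV libraries differed widely, with 4.82 and 9.03 CPM for Egr2, 18.1 and 9.74 for Egr3 and 4.49 and 8.99 for Ier3. With BCR-ABL1, Egr2 had 18 and 10 reads and Ier3 11 and 14. In C-MYC 6 were lower than in EV, led by Egr2 (-3.92 ± 0.48), Egr3 (-2.68 ± 0.35), Ier3 (-2.26 ± 0.44) and Phlda1 (-2.04 ± 0.27), and 1 was higher.

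Of 8 genes listed as kinases downstream of ERK, Rps6ka1 (0.80 ± 0.16) and Rps6ka5 (0.56 ± 0.16) were higher in BCR-ABL1 than in C-MYC. They were lower in C-MYC than in EV (-0.82 ± 0.16 and -0.75 ± 0.16), as was Mknk1 (-0.44 ± 0.14). Rps6ka6 had 2 and 2 reads in EV against 18 and 29 with BCR-ABL1 and 27 and 57 with C-MYC, a ratio to EV of 11.8 (exact 95% interval 4.31 to 45.1) and of 21.6 (8.14 to 81.2). For comparison, among 9 genes of the JNK and p38 branches that were tested, Map2k3 was lower in BCR-ABL1 than in C-MYC (-0.61 ± 0.12) and 0 were higher. Against EV, Mapk9 was lower in BCR-ABL1 (-0.57 ± 0.13) and in C-MYC (-0.59 ± 0.13), and Mapk8 (0.53 ± 0.14) and Map2k3 (0.62 ± 0.12) were higher in C-MYC. Mapk13 had 40 and 17 reads in EV and at most 3 in any other library, with EV exceeding BCR-ABL1 by a ratio of 18.9 (6.16 to 94.5) and C-MYC by 27.7 (7.32 to 234), intervals that leave out the difference between the EV libraries.

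The counts of called list genes fell when an oncogene library of the comparison was left out, as did those of members and of all genes. The falls are therefore not read as a trait of the lists. Between the oncogenes 30 were called with all libraries, but 6 without BCR-ABL1 replicate 1, 14 without BCR-ABL1 replicate 2, 16 without C-MYC replicate 1 and 9 without C-MYC replicate 2. For BCR-ABL1 against EV 21 were called, but 9 without BCR-ABL1 replicate 1 and 4 without BCR-ABL1 replicate 2, and for C-MYC against EV 46 were called, but 30 without C-MYC replicate 1. The program that counted the reads and its use of strand are not given in the sources used here, so that reads of genes that overlap on opposite strands may be shared.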

How the data were processed

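Poly(A) RNA-seq of 6 libraries, 2 for each of 3 conditions, was analysed. The members and all gene lists were chosen with earlier results of these data known. The authors aligned reads to GRCm38/mm10 with STAR 2.5.0 and UCSC known genes and deposited whole-number counts per gene symbol. The deposited FPKM values were calculated by the authors with StringTie 1.3.0. Both tables held 0 columns of other samples. The ChIP-seq tracks were not analysed here.

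Counts were fitted with edgeR 4.0.16 in R 4.3.3, all 6 libraries in 1 model of condition, after filterByExpr (12786 of 24421 genes) and TMM scaling. A gene was called where the adjusted p (Benjamini-Hochberg) of the quasi-likelihood test fell below 0.05. The SE of a log2 fold change is its size divided by the square root of F. CPM are TMM-normalised. With 2 libraries a condition, the common biological coefficient of variation was 0.151. Replicates differed beyond counting noise (chi-square per degree of freedom 42.9 for EV, 10.1 for BCR-ABL1, 19.1 for C-MYC). These are means over genes, to which genes with many reads add most. Counting error is large where reads are few, as for Etv4, Spry4 and, in C-MYC, Dusp4.

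Named were all members, from each list every gene called in a comparison or, above 4, the 4 with the largest change, the 5 genes most like Dusp6, Myc, and markers, apart from some genes not reported here. Spry3, Cic, Atxn1l, the C-MYC value and EV level of Atxn1 and the library levels of Dusp1, Egr2, Egr3 and Ier3 were given outside this rule after their values were seen. Positions and exon lengths are from GENCODE vM21. Alternatives were DESeq2 1.42.0 and its size factors, no filter, only the libraries compared, a replicate block, leaving out each library, and limma 3.58.1 on log2(FPKM + 1) or log2(FPKM + 0.1). Tables were made in Python 3.11.15 (pandas 2.3.3, numpy 2.4.6, scipy 1.17.1) and figures in matplotlib 3.10.9.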

Additional observations from a re-analysis of the deposited data

Results flagged for a closer look

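For 8 genes every BCR-ABL1 library lay on 1 side of both EV libraries and every C-MYC library on the other side. Among the members these were Dusp6 (log2 difference from EV of 1.00 with BCR-ABL1 and -3.17 with C-MYC), Spred1 (1.21 and -0.68), Etv4 (1.10 and -3.75, the latter fitted on 1 read) and Etv5 (2.01 and -1.67). For these 4 the difference between the oncogenes is a description, because the list was chosen on it. Of the other pathway genes these were Etv1 (1.55 and -1.92), Elk3 (0.42 and -1.01), Rasal3 (0.25 and -0.83) and Shoc2 (0.28 and -0.18). Their log2 differences between BCR-ABL1 and C-MYC were 3.46, 1.44, 1.07 and 0.46. These too are a description, because the genes are given here for lying on opposite sides of EV in the same libraries, and the difference between the effects was not tested in other libraries. The share of all genes with this pattern was not counted, so nothing is read from the number of genes given. Both comparisons with EV use the same 2 EV libraries.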

How the results depend on the processing

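No member called in the main fit changed sign in any of the 14 alternatives that gave it a value. Sign changes were seen for Dusp5 and Spry2 (BCR-ABL1 against EV) and Dusp5 and Spred2 (C-MYC against EV), none of which was called in the main fit. For BCR-ABL1 against EV, Dusp5 was at -0.43 without EV replicate 1 and 0.69 without EV replicate 2, and Spry2 at -0.03 and 0.50. For C-MYC against EV, Dusp5 was at -0.83 and 0.30 in these fits and Spred2 at 1.03 and -0.23. Leaving out 1 library gave 2 to 6, 3 to 8 and 4 to 8 called members for BCR-ABL1 against EV, C-MYC against EV and BCR-ABL1 against C-MYC, 4 to 27, 30 to 53 and 6 to 40 called list genes, and 665 to 2729, 3329 to 6077 and 618 to 4519 called genes in all, lowest without BCR-ABL1 replicate 2, C-MYC replicate 1 and BCR-ABL1 replicate 1. Where it left 1 library in a condition, that library was assumed to vary like the others. In limma on log2(FPKM + 0.1), BCR-ABL1 against EV had 3 called members, and BCR-ABL1 against C-MYC had 18 list genes and 1671 genes in all. In limma on log2(FPKM + 1) without a filter, 2 members, 13 list genes and 1247 genes were called for BCR-ABL1 against EV, and 17 list genes and 1719 genes for BCR-ABL1 against C-MYC. With the filter, 1450 genes were called for BCR-ABL1 against EV. A fit of only the 4 libraries compared called 4538 genes between the oncogenes. The causes were not tested. Main counts over all genes were 2180, 5515 and 2991, of which 29.8%, 43.2% and 50.9% were higher, against 19.4%, 33.0% and 60.1% in limma on log2(FPKM + 1). The pseudocount of 1 shrinks low genes: Dusp4 and Etv4 differed by 0.59 and 0.36 between the oncogenes on that scale. Replicate numbers are shared across conditions, but the labels do not say that a number marks a batch, the duplicate experiments of the study's methods are not tied to numbers, and with 2 numbers the correlation of replicate deviations (0.273, 0.236 and 0.204) is a hint only. With a replicate block 5, 6 and 8 members, 29, 54 and 40 list genes, and 3224, 6631 and 4278 genes were called.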
